A study of Mus musculus with 6 samples.

Results

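The 9 genes described here encode the pool of actin monomers and the small proteins that hold, load and sever it: the thymosins Tmsb10 and Tmsb4x, the profilins Pfn1 and Pfn2, the cofilins Cfl1 and Cfl2, destrin (Dstn), and the cytoplasmic actins Actb and Actg1. They were taken by symbol, each symbol matched 1 row, and they are 9 of the 25576 genes listed in at least 1 library. The group was selected on measured values, since Tmsb10 was put forward as raised in SMA, so the differences of the 9 genes between SMA and control are given as a description and without a test. Bulk-seq was made from ribosomal RNA-depleted total RNA of whole spinal cord of mice at postnatal day 4, with 3 libraries per group. SMA mice were mSmn-/-, hSMN2 2tg/0 and control mice were mSmn+/-, hSMN2 2tg/0, both on the FVB strain. Control mice thus also carried 1 mutant copy of Smn and the human SMN2 transgene. The study's methods speak of triplicates and of an n of 1 in each group. The SMA libraries did not all come from 1 mouse, since sex-linked RNA differed among them as given below, but how many mice stand behind each group is not known, so the error over the libraries may be technical in part. Levels are FPKM, which are per transcript length. They can be compared between genes, though less surely for short transcripts, whose levels shifted between libraries as given below.

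Actin cycles between monomers and filaments, and the balance sets the shape and motility of a cell. Thymosins of the beta family bind monomers and keep them out of filaments, profilins recharge monomers with ATP and pass them to growing ends, and cofilins and destrin sever old filaments and return their subunits to the pool. In developing neurons this cycle drives the growth cone, the motile tip of the axon, and profilins have been studied in spinal muscular atrophy as partners of the SMN protein.

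The thymosins are the shortest of these genes, and their coding sequences are printed because the groups did not overlap for Tmsb10 and overlapped for Tmsb4x. In GENCODE the coding part of the main transcript lies in 2 exons of each gene, on the minus strand of GRCm38, at chr6:72957621-72958012 for Tmsb10 and at chrX:167207504-167208036 for Tmsb4x. Capitals mark the 40 of 132 bases at which they differ, without the stop codon.
Tmsb10: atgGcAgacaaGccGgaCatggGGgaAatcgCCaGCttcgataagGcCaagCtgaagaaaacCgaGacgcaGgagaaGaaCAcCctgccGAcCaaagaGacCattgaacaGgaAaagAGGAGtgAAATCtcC
Tmsb4x: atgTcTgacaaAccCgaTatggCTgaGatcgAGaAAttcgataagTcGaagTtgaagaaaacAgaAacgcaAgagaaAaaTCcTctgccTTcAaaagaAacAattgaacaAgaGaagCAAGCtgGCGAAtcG
The differences are spread over the whole length, with the longest runs of them near the end.

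Smn1, which SMA mice carried only in its mutant form, was read first as a check of the labels. Its level was 10.4 FPKM in control replicate 1, 8.64 FPKM in control replicate 2 and 11.9 FPKM in control replicate 3, against 8.48, 9.30 and 11.1 FPKM in SMA replicates 1, 2 and 3. These ranges overlapped, and Smn1 therefore could not be used to check which libraries are SMA. Whether the mutant allele still gives RNA cannot be told from these levels.

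Control replicate 2 stood apart from the other 5 libraries. Hepatocyte marker genes took up 8.70% of its summed FPKM against 0.0173% to 0.0364% elsewhere. Their sum was 35999 FPKM against 63.3 to 132 FPKM, though 19 or 20 of the 20 genes were detected in every library. Alb, the most abundant, was at 15895 FPKM there. The erythroid list, led by Hbb-bs, summed to 18856 FPKM against 1115 to 1863 FPKM, the neutrophil list, led by S100a8, to 430 FPKM against 5.97 to 12 FPKM, and the proliferation list, led by Top2a, to 106 FPKM against 15.3 to 28.3 FPKM. Neuron and OPC genes were lower in it: the neuron list, led by Stmn2, summed to 805 FPKM against 1449 to 1583 FPKM, and the OPC list, led by Cspg5, to 139 FPKM against 193 to 213 FPKM. Xist, which is expressed from the inactive X chromosome of females, was at 101 FPKM in it while the Y-linked Eif2s3y was at 10.1 FPKM. In the remaining control libraries and in SMA replicates 1 and 2, Xist was at or under 0.241 FPKM and Eif2s3y was at 31.0 to 34.2 FPKM, and SMA replicate 3 had 146 FPKM of Xist with almost no Eif2s3y (0.03 FPKM). Control replicate 2 thus held RNA with marks of both sexes. The differences of the 9 genes and the counts of genes called are given below with and without this library.

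SMA replicates 2 and 3 were lower than the rest in genes of fibroblasts. The fibroblast list, led by Igf2, summed to 246, 830 and 190 FPKM in controls and to 260, 119 and 54.8 FPKM in SMA. Igf2 alone made up 638 of the 830 FPKM, and without it the sums were 171, 192 and 148 FPKM in controls and 184, 78.2 and 35.1 FPKM in SMA. Skeletal muscle genes, led by Actn2, summed to at most 11.4 FPKM in any library. In bulk tissue, fewer cells of a type and less RNA per cell cannot be told apart.

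Levels of the 9 genes spanned more than an order of magnitude. Over all 6 libraries the mean was 1101 FPKM for Actb, 766 FPKM for Actg1, 321 FPKM for Tmsb4x, 248 FPKM for Cfl1, 237 FPKM for Pfn2, 88.7 FPKM for Dstn, 83.6 FPKM for Pfn1, 75.5 FPKM for Tmsb10 and 54.0 FPKM for Cfl2. Actb ranked between 9th and 23rd among all genes of a library and Actg1 between 14th and 50th, each with its worst rank in control replicate 2. Tmsb10 moved the most, from rank 1547 in control replicate 3 to rank 418 in SMA replicate 3. Neighbours in this order were not always separated: Cfl1 and Pfn2 were nearly level in each library other than control replicate 2, and Pfn1, Dstn and Tmsb10 changed order between libraries. Summed, the 9 genes took 0.833% to 0.871% of all FPKM in 5 of the libraries and 0.595% in control replicate 2.

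**Figure D1:**
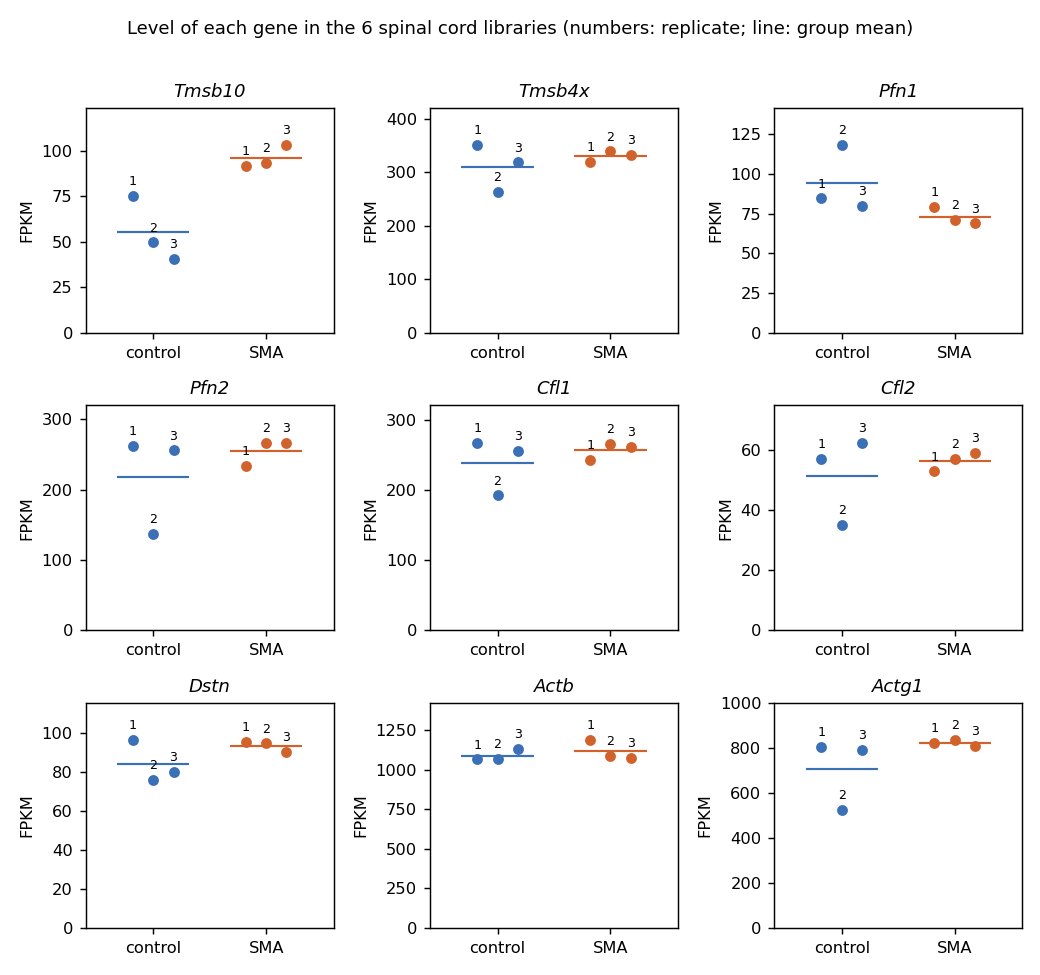
Level in FPKM of each of the 9 genes in the 3 control (blue) and 3 SMA (orange) libraries, with replicate numbers beside the points and the group mean as a line; each axis starts at 0. Tmsb10 lies at 40.8 to 74.9 FPKM in controls and 91.5 to 103 FPKM in SMA, while control replicate 2 is the low point for Pfn2, Cfl1, Cfl2, Dstn, Tmsb4x and Actg1 and the high point for Pfn1.

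Tmsb10, the thymosin for which the group was chosen, was at 74.9, 49.7 and 40.8 FPKM in control replicates 1, 2 and 3 and at 91.5, 93.4 and 103 FPKM in SMA replicates 1, 2 and 3. Every SMA library was above every control library, and controls were far more scattered than SMA. The mean was 55.1 ± 17.7 FPKM in controls and 95.9 ± 6.13 FPKM in SMA (SD, n = 3 each), a ratio of 1.74. On the log2(FPKM + 1) scale the difference was 0.83 with a standard error of 0.22, and without control replicate 2 it was 0.78 with a standard error of 0.21. Of the 17088 genes tested, 10.3% were higher in SMA with no overlap between groups and 6.67% were lower with no overlap. Tmsb10 and Actg1 were of the first kind and Pfn1 of the second, and nothing is read from these counts, since the contrast was used to choose the genes.

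Tmsb4x, the abundant X-linked thymosin, did not share this pattern. It was at 351, 263 and 319 FPKM in controls and at 320, 339 and 333 FPKM in SMA. The groups overlapped, and SMA replicate 3, the library with Xist and almost no Y-linked RNA, lay between the other SMA libraries. The log2 difference was 0.10 with a standard error of 0.14, and it was -0.02 with a standard error of 0.07 without control replicate 2. The ratio of Tmsb10 to Tmsb4x within a library, which does not depend on how that library was scaled, was 0.214, 0.189 and 0.128 in controls and 0.286, 0.275 and 0.310 in SMA. The groups did not overlap in this ratio either, and the mean log2 difference was 0.75, or 0.81 without control replicate 2. Against Actb the Tmsb10 ratio was 0.0704, 0.0466 and 0.0361 in controls and 0.0771, 0.0859 and 0.0958 in SMA, with control replicate 1 close to SMA replicate 1.

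Control replicates 1 and 3, whose hepatocyte lists summed to 111 and 81.2 FPKM, differed from each other by 1.84-fold in Tmsb10. The neuron list did not separate them, at 1495 and 1491 FPKM, whereas the oligodendrocyte list, led by Mbp, was at 898 and 1342 FPKM, beside 710, 886 and 913 FPKM in SMA. The immature neuron list, led by Tubb2b, summed to 1630, 927 and 1460 FPKM in control replicates 1, 2 and 3 and to 1733, 1696 and 1696 FPKM in SMA, so that it was lower in control replicate 3 than in control replicate 1. Without Tubb2b the sums overlapped between groups, at 977, 585 and 873 FPKM in controls and 1005, 976 and 966 FPKM in SMA. At an unadjusted p under 0.05 by limma, 1 of its 8 genes was higher in SMA, beside 3.4% of all genes tested. Without control replicate 2 it was 4 of 8, beside 5.27%. Of the 8 genes of the neuron list, 0 were higher with all 6 libraries and 2 without control replicate 2. None passed an adjusted p under 0.05. All 8 genes of each of these lists were detected in each library, and the part of these genes in the Tmsb10 difference was not tested.

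Short transcripts moved between the same controls. Among protein-coding genes that averaged 10 FPKM or more, the median of control replicate 1 minus control replicate 3 on the log2 scale was 0.40 for the 49 genes whose longest transcript was up to 500 bases, 0.27 for the 139 genes of over 500 to 750 bases, 0.13 for the 180 genes of over 750 to 1000 bases and 0.00 for the 2915 genes of over 4000 bases. For the 70 cytosolic ribosomal protein genes it was 0.31. Tmsb10, with a longest transcript of 690 bases, differed by 0.86, and 4 of the 139 genes of its length range, Tmsb10 among them, differed by as much. Tmsb4x, at 864 bases, differed by 0.14 and Pfn1, at 861 bases, by 0.09, both near the median of their range. Between SMA and control no such slope was seen without control replicate 2: the median was -0.02 up to 500 bases, 0.01 from 500 to 750 bases and 0.01 over 4000 bases. These medians set SMA against the average of control replicates 1 and 3, which themselves differed with length. Slopes of SMA against either of them alone were not computed. With all 6 libraries there was a slope, with medians of -0.69 up to 500 bases, 0.00 from 500 to 750 bases and 0.11 over 4000 bases, and control replicate 2 minus the other controls had medians of 1.48, 0.07 and -0.32 in these ranges. The part of transcript length in the spread of Tmsb10 among controls was not tested.

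**Figure D2:**
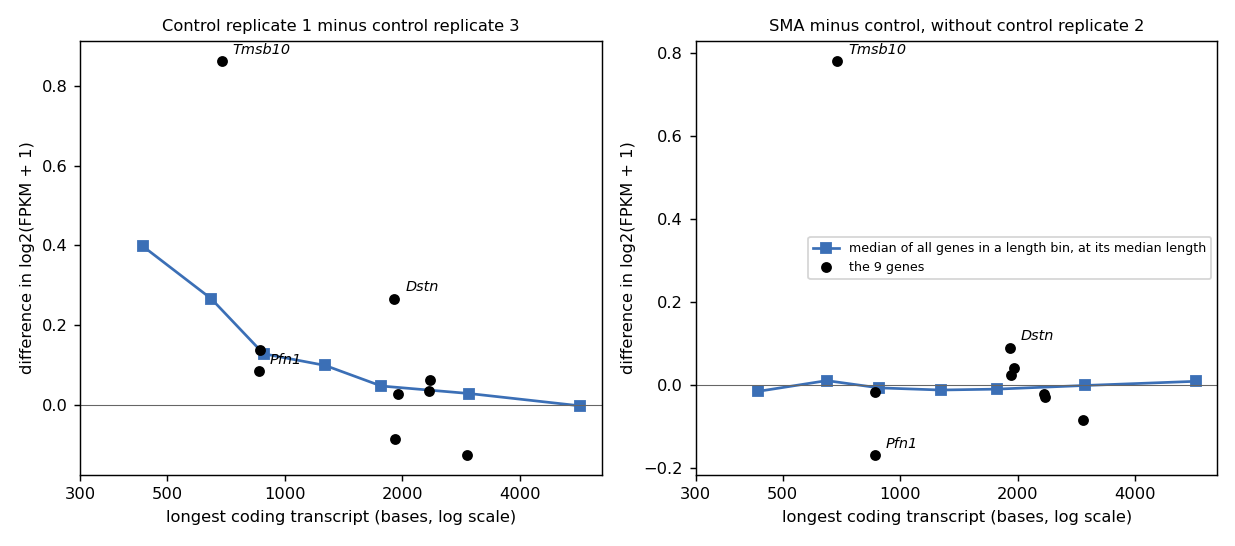
Difference in log2(FPKM + 1) against the longest coding transcript in bases (log scale), for control replicate 1 minus control replicate 3 (left) and for SMA minus control without control replicate 2 (right). Squares are medians of all genes averaging 10 FPKM or more in a length range, placed at its median length, and black points are the 9 genes; the medians rise to 0.40 for the shortest genes on the left and stay between -0.02 and 0.01 on the right, with Tmsb10 at 0.86 and 0.78.

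The genes whose levels were most like those of Tmsb10 over the 6 libraries, by Pearson's r of log2(FPKM + 1) among 7135 other genes averaging 10 FPKM or more, were Trmt1 (r = 0.998), Chmp5 (r = 0.993), Mbd3 (r = 0.989), Rn7s2 (r = 0.981), Bex1 (r = 0.979) and Snrpa1 (r = 0.977). Trmt1 encodes a tRNA methyltransferase, Chmp5 a subunit of the ESCRT-III membrane-cutting complex, Mbd3 a subunit of the NuRD chromatin complex and Snrpa1 the U2 snRNP protein A′. Rn7s2 is a copy of the RNA of the signal recognition particle, a short RNA that is not polyadenylated, and it was at 9384, 8128 and 7341 FPKM in controls and at 10878, 11660 and 12417 FPKM in SMA. Relative to their levels, all 6 moved over a narrower range than Tmsb10: Trmt1, the most alike, was at 19.7 to 23.4 FPKM in controls and at 24.6 to 25.4 FPKM in SMA. The r of these 6 genes was 0.976 to 0.999 without control replicate 2. In all, 21 genes reached an r of 0.95 with Tmsb10, and the 6 libraries are the only points behind each r.

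Part of the Tmsb10 transcript occurs elsewhere in the genome. Of all windows of 100 bases in its main transcript, 21.5% occurred in a transcript of another gene, most of them in the retrogene Gm9844. Gm9844 was listed at 1.82, 1.22 and 1.01 FPKM in controls and at 2.34, 2.77 and 2.65 FPKM in SMA, in the same order of groups as Tmsb10 and at a small share of its level. No window of 100 bases of Tmsb4x, Pfn1, Pfn2, Cfl2 or Dstn was shared, and for Cfl1 12.4% were, mainly with Snx32, which overlaps it on the opposite strand.

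The start of Tmsb10 was searched for letters found in promoters because its level differed between groups. RefSeq windows of 250 bases before to 50 bases after each gene start (GRCm38.p6) were found for 8 of the 9 genes, in 10 windows. The set of windows used here held none for Actb, which was not searched although its locus is annotated in GENCODE. The letters TATATAA, on either strand, occurred in 1 window of Tmsb10 and in none of the other genes, and in 3.24% of all 32851 windows, whereas TATAAA occurred in none of the 10 and in 13.6% of all. The match lay on the minus strand within chr6:72958414-72958443, 192 bases before the RefSeq start and inside an annotated exon of another Tmsb10 transcript, and is in capitals.
Tmsb10: cggggcgcggtgTATATAAgacgaggggcg
The letters GGGCGG occurred in all 10 windows, against 35.7% of all windows.

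Pfn1, the profilin found in most tissues, was at 84.6, 118 and 79.7 FPKM in controls and at 79.4, 70.9 and 68.9 FPKM in SMA. Each SMA library was below each control library, by less than 1 FPKM between control replicate 3 and SMA replicate 1, and the highest value was that of control replicate 2. The mean was 94.1 ± 20.9 FPKM in controls and 73.0 ± 5.58 FPKM in SMA (SD, n = 3 each). The log2 difference was -0.34 with a standard error of 0.17, and without control replicate 2 it was -0.17 with a standard error of 0.07.

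The summed endothelial and mural lists were also lower in SMA, though most of their genes overlapped between groups. The endothelial list, led by Cldn5, summed to 61.8, 89.2 and 72.4 FPKM in controls and to 57.1, 46.2 and 51.0 FPKM in SMA, with all 8 genes detected in each library. The pericyte and smooth muscle list, led by Rgs5, summed to 33.8, 40.3 and 44.1 FPKM in controls and to 31.3, 25.8 and 27.7 FPKM in SMA, with 7 or 8 of its 8 genes detected. Without Cldn5 the endothelial sums overlapped between groups, at 36.0, 68.8 and 47.5 FPKM in controls and 40.7, 30.5 and 36.6 FPKM in SMA, whereas without Rgs5 each SMA library stayed below each control in the other list. By limma 3 of 8 endothelial and 3 of the 6 pericyte and smooth muscle genes tested were lower at an unadjusted p under 0.05, with and without control replicate 2, beside 2.39% and 5.2% of all genes tested, and 1 endothelial gene was higher without it. None passed an adjusted p under 0.05. The proliferation list did not overlap between groups, at 28.3, 106 and 25.7 FPKM in controls and 22.2, 15.3 and 20.0 FPKM in SMA, with 1 of 6 genes lower at an unadjusted p under 0.05, 3 of 6 without control replicate 2 and none at an adjusted p. The part of these lists in the Pfn1 difference was not tested.

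Pfn2, the profilin enriched in neurons, was at 262, 137 and 256 FPKM in controls and at 234, 266 and 267 FPKM in SMA. Groups overlapped, and 1 library, control replicate 2, was at 0.530 of the mean of the other controls, almost the 0.540 of the neuron list. With it the log2 difference was 0.28 with a standard error of 0.26, and without it -0.02 with a standard error of 0.07. Pfn1 thus stood at 0.323, 0.860 and 0.311 of Pfn2 in controls and at 0.340, 0.266 and 0.258 in SMA, so that the profilin ratio overlapped between groups and was far higher in control replicate 2 than elsewhere.

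Cfl1, the main cofilin of non-muscle cells, was at 268, 193 and 256 FPKM in controls and at 243, 267 and 261 FPKM in SMA. Cfl2, which is best known from muscle, was at 57.3, 35.0 and 62.6 FPKM in controls and at 53.0, 57.1 and 59.2 FPKM in SMA. Both were lowest in control replicate 2 and both overlapped between groups. The log2 difference of Cfl1 was 0.12 with a standard error of 0.16 and that of Cfl2 0.17 with a standard error of 0.22, and without control replicate 2 they were -0.03 and -0.08, each with a standard error of 0.06 to 0.07. Cfl1 stood at 4.68, 5.50 and 4.10 times Cfl2 in controls and at 4.58, 4.67 and 4.41 times in SMA.

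Dstn, also called actin-depolymerizing factor, was at 96.3, 75.9 and 79.9 FPKM in controls and at 95.3, 94.7 and 90.4 FPKM in SMA. Control replicate 1 was as high as SMA, so the groups overlapped. The log2 difference was 0.16 with a standard error of 0.12, and 0.09 with a standard error of 0.08 without control replicate 2. Dstn was also the gene whose levels ran most like those of Tmsb10 among the other 8, with an r of 0.84 over the 6 libraries and 0.82 without control replicate 2. Cfl1 stood at 2.78, 2.54 and 3.21 times Dstn in controls and at 2.55, 2.81 and 2.89 times in SMA.

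Actb, the beta actin often used as a reference gene, was at 1065, 1065 and 1129 FPKM in controls and at 1186, 1087 and 1074 FPKM in SMA. It overlapped between groups, and in control replicate 2 it was at 0.971 of the mean of the other controls, the nearest to 1 among the 9 genes. The log2 difference was 0.04 with a standard error of 0.15, and 0.02 with a standard error of 0.08 without control replicate 2. Its sign depended on the scaling, at -0.03 with median ratio scaling and 0.17 with quantile normalization. The coefficient of variation of Actb over the 6 libraries was 4.36%. Among common reference genes it was 2.67% for Pgk1, 4.24% for Sdha, 9.09% for Ppia, 15.6% for Ywhaz, 15.9% for Gapdh and 147% for B2m, whose level was 116 FPKM in control replicate 2 and at most 13.8 FPKM elsewhere. Without control replicate 2 it was 4.52% for Actb, 2.93% for Pgk1, 3.31% for Ywhaz, 3.61% for Sdha, 6.57% for Ppia, 14.2% for Gapdh and 14.7% for B2m. The genes most like Actb over the 6 libraries were Pcnxl3 (r = 0.979), Msi2 (r = 0.976), Agbl5 (r = 0.952), Ciz1 (r = 0.95), Dot1l (r = 0.946) and Gtpbp6 (r = 0.946), and 4 genes reached an r of 0.95. The r of the 6 was 0.944 to 0.989 without control replicate 2.

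Actg1, the gamma actin, was at 808, 524 and 792 FPKM in controls and at 823, 836 and 812 FPKM in SMA. Each SMA library was above each control, but control replicate 1 was close to SMA replicate 3, and control replicate 2 was at 0.655 of the mean of the other controls. The log2 difference was 0.24 with a standard error of 0.20, and 0.04 with a standard error of 0.07 without control replicate 2. The ratio of Actb to Actg1 was 1.32, 2.03 and 1.42 in controls and 1.44, 1.30 and 1.32 in SMA. It overlapped between groups, and the highest value was again that of control replicate 2. For Actg1, 1511 genes reached an r of 0.95, and 1330 did for Pfn2, 957 for Cfl1 and 901 for Cfl2, all of them low in control replicate 2. Without that library the r of Pfn2 and Actg1 went from 0.98 to -0.05 and that of Pfn2 and Cfl2 from 0.98 to 0.61, while that of Pfn2 and Cfl1 went from 0.99 to 0.94.

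The actins are close copies, and their coding sequences share 997 of 1125 bases (88.6%), against 92 of 132 (69.7%) for the thymosins, 356 of 498 (71.5%) for the cofilins and 259 of 420 (61.7%) for the profilins. The first 90 coding bases are shown because the proteins differ mainly at this end, from the minus strand of GRCm38 at chr5:142905597-142905686 for Actb and chr11:120348002-120348091 for Actg1, with the 16 differing bases in capitals.
Actb: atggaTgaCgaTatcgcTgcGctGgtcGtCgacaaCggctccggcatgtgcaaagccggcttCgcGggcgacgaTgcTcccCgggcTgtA
Actg1: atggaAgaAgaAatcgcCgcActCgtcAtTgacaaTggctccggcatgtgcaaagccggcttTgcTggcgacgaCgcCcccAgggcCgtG
Between the 2 main transcripts and those of all other genes, 1.10% of the 100-base windows of Actb and 51.1% of those of Actg1 occurred elsewhere. For Actg1 most lay in the processed pseudogene Gm12715, which was listed at 43.7, 29.6 and 41.3 FPKM in controls and at 59.4, 54.7 and 53.6 FPKM in SMA. The level of Actg1 is therefore uncertain by the reads that could be given to either gene.

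The start of Actg1 held the only match to the CArG box, the binding motif of serum response factor, in the 10 windows, none of which is of Actb. The factor is known to work with coactivators that are released when free actin monomers run low, and actin genes are among its known targets. The match was on the minus strand within chr11:120348566-120348595, upstream of the annotated exons, and CArG boxes occurred in 1.63% of all windows.
Actg1: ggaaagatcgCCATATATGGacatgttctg
Capitals mark the motif, and a match of letters is not a measure of binding. The coactivators of the factor were at 10.3 to 13.7 FPKM for Mkl1 and 12.6 to 17.4 FPKM for Mkl2 over the 6 libraries, with log2 differences of 0.02 and 0.06, or -0.06 and -0.03 without control replicate 2.

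Control replicate 2 moved the 9 genes to different degrees. Against the mean of the other controls, it was at 0.530 for Pfn2, 0.585 for Cfl2, 0.655 for Actg1, 0.735 for Cfl1, 0.787 for Tmsb4x, 0.859 for Tmsb10, 0.861 for Dstn, 0.971 for Actb and 1.44 for Pfn1. The same ratio was 0.540 for the neuron list, 0.600 for the immature neuron list, 0.774 for the astrocyte list, led by Aldoc, 0.781 for the oligodendrocyte list, led by Mbp, and 2.32 for the ependymal list. That last value came from Rarres2 alone, at 101 FPKM against 3.23 and 2.07 FPKM, while Sox2, the most abundant of the list, was at 24.3 FPKM against 35.7 and 31.9 FPKM. Pfn2 and Cfl2 were as low as neuronal genes, and Pfn1 went the opposite way. The part of the liver and blood RNA in these ratios was not tested.

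**Figure D3:**
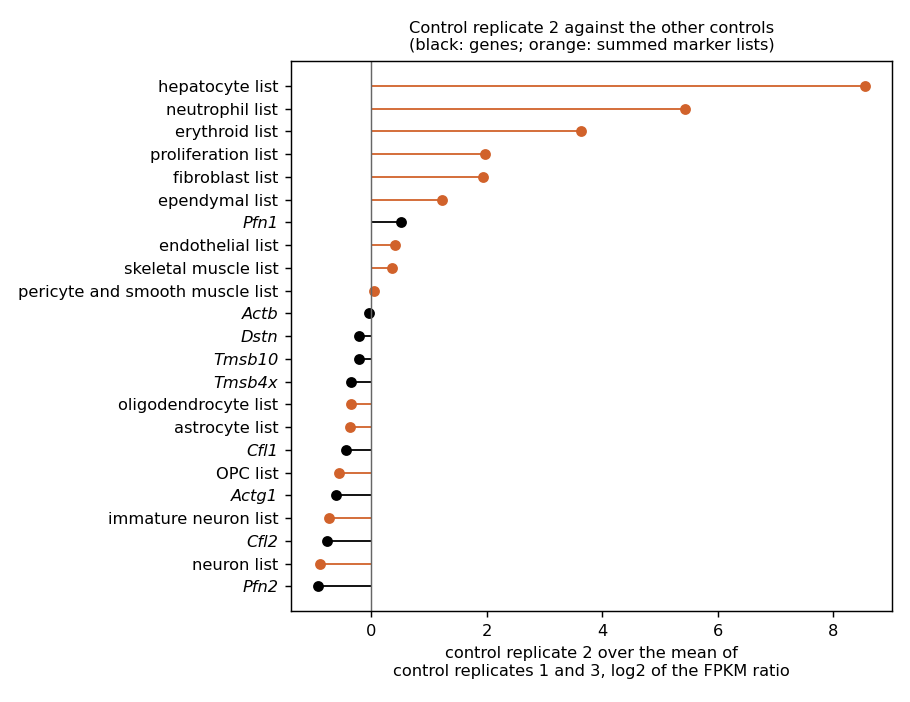
FPKM in control replicate 2 over the mean of control replicates 1 and 3, on a log2 axis, for the 9 genes (black) and for the summed FPKM of 14 marker lists (orange), in order of the ratio. Pfn2, at a ratio of 0.530, sits beside the neuron list at 0.540, and Pfn1, at 1.44, is the only gene of the 9 above the other controls.

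**Figure D4:**
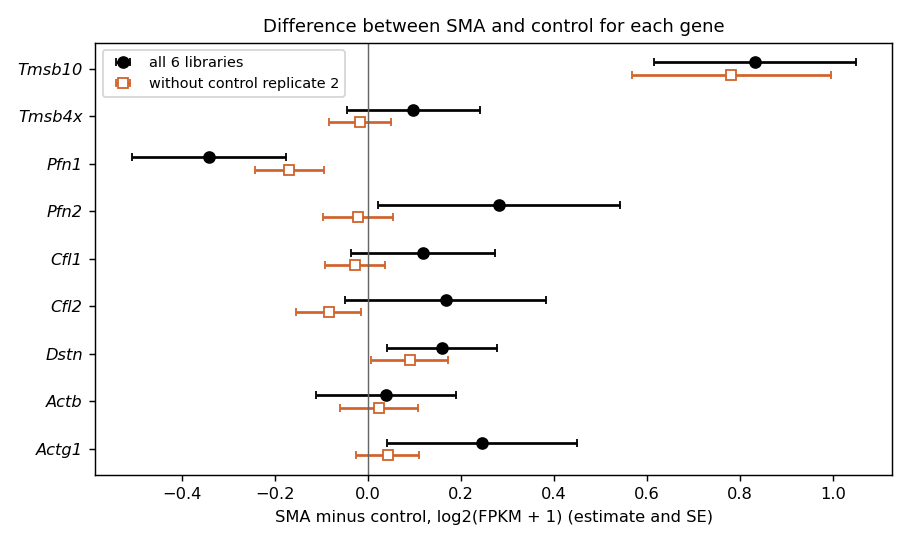
SMA minus control on the log2(FPKM + 1) scale for the 9 genes, as the limma estimate with its standard error, from all 6 libraries (black circles) and without control replicate 2 (orange squares). Tmsb10 is at 0.83 and 0.78, Pfn1 at -0.34 and -0.17, and without control replicate 2 the other 7 lie between -0.08 and 0.09.

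The other genes of the actin machinery were read from 10 lists of 116 genes, of which 114 were in the files and 106 averaged 0.5 FPKM or more and were tested with limma. At an adjusted p under 0.05 none of the 106 passed, as none of all 17088 genes did (0%). Without control replicate 2, 0 of 107 passed, beside 2 of all 16574 genes (0.0121%), which were Rpph1 and Snora74a and are named after their values were seen. At an unadjusted p under 0.05, 1 of 106 was higher in SMA and 7 were lower, beside 3.4% and 2.39% of all genes tested. Without control replicate 2 it was 4 of 107 higher and 7 lower, beside 5.27% and 5.2%. The median log2 difference of the 106 genes was 0.04, the same as that of all genes tested, and without control replicate 2 the medians were -0.02 and 0.00.

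Of the 7 lower genes, 5 were of the bundling and crosslinking list of 19, beside 2.39% of all genes tested. Without control replicate 2 it was also 5 lower, with 1 higher, beside 5.2% and 5.27%. The lower count over all actin lists was 2 without SMA replicate 2 and 2 without SMA replicate 3. Tpm4, a tropomyosin that lies along filaments, was at 21.8, 25.1 and 17.9 FPKM in controls and at 16.3, 12.3 and 11.5 FPKM in SMA, with a log2 difference of -0.65. Lcp1, the plastin of blood cells, was at 5.87, 12.5 and 6.92 FPKM in controls and at 4.29, 3.92 and 4.71 FPKM in SMA, with a log2 difference of -0.77. Msn, the membrane linker moesin, was at 17.9, 21.9 and 17.9 FPKM in controls and at 15.9, 13.2 and 13.1 FPKM in SMA, with a log2 difference of -0.43. Their adjusted p by limma was 0.68, the same for each, and without control replicate 2 the log2 differences were -0.54, -0.48 and -0.33. Tpm3 and Vcl (vinculin), named after their values were seen, had log2 differences of -0.28 and -0.28, or -0.26 and -0.26 without control replicate 2. The most abundant genes of the list had other values: Marcksl1 was at 318, 202 and 303 FPKM in controls and at 294, 306 and 299 FPKM in SMA, and Marcks had a log2 difference of -0.02, or -0.13 without control replicate 2. The part of endothelial and mural cells in these 5 genes was not tested.

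Of the 14 genes tested in the list of genes that control cofilin, 1 was higher and 1 lower at an unadjusted p under 0.05 by limma. The shares of all genes tested were 3.4% and 2.39%. Without control replicate 2 it was 1 higher and 2 lower, beside 5.27% and 5.2%. Rhoa, the GTPase that acts through ROCK and LIM kinases, was at 84.0, 80.5 and 66.2 FPKM in controls and at 66.0, 61.2 and 60.5 FPKM in SMA, with a log2 difference of -0.29. Tesk1, a kinase that phosphorylates cofilin, was at 14.2, 12 and 13 FPKM in controls and at 16.5, 15.5 and 15.8 FPKM in SMA, with a log2 difference of 0.27. The adjusted p by limma was 0.68 for both, and without control replicate 2 the log2 differences were -0.25 and 0.22. Cdc42 and Rac1, the most abundant of the list, were at 211 and 88.7 FPKM on average, with log2 differences of 0.07 and -0.01, or -0.07 and -0.08 without control replicate 2.

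Among the other actins, all under 7 FPKM, Acta2 of smooth muscle was lower at an unadjusted p under 0.05, at 1.5, 3.92 and 2.43 FPKM in controls and 1.54, 0.825 and 0.980 FPKM in SMA. Its groups overlapped, and the log2 difference of -0.73 became -0.48 without control replicate 2, where it no longer passed. Actc1 of heart and early muscle had a log2 difference of 0.56, or 0.54 without that library, and passed neither threshold.

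The remaining lists had no gene past an unadjusted p under 0.05 with all 6 libraries. Their medians were 0.17 for the 6 monomer binding genes tested, 0.06 for the 10 severing genes, 0.01 for the 10 genes of the Arp2/3 complex, 0.15 for the 14 nucleation promoters, 0.07 for the 16 formins and Ena/VASP proteins, 0.07 for the 11 capping genes and 0.02 for the 3 genes of the SRF and MRTF list, and in this order without control replicate 2 they were 0.07 (7 genes), -0.03, -0.05, 0.08, 0.03, -0.02 and -0.03. Of their most abundant genes, Mtss1l and Cap1 of the monomer binding list had log2 differences of 0.22 and 0.14, Wdr1 and Gmfb 0.12 and 0.12, Actr2 and Arpc2 0.04 and -0.02, Enah and Evl 0.17 and 0.34, and Tmod2 and Capzb 0.28 and 0.09. Cyfip2, a subunit of the WAVE complex, was at 67.9, 41.3 and 69.3 FPKM in controls and at 71.4, 74.1 and 74.0 FPKM in SMA, with a log2 difference of 0.33, and its partner Brk1 had 0.09. Without control replicate 2 these 12 genes lay between -0.05 and 0.09. Of the 107 genes tested without that library, 4 were higher at an unadjusted p under 0.05 by limma, beside 5.27% of all genes tested. These were Tesk1, Wasf1, Wasf3 and Dbn1, and Pak1 joined the lower genes. They are named after their values were seen.

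**Figure D5:**
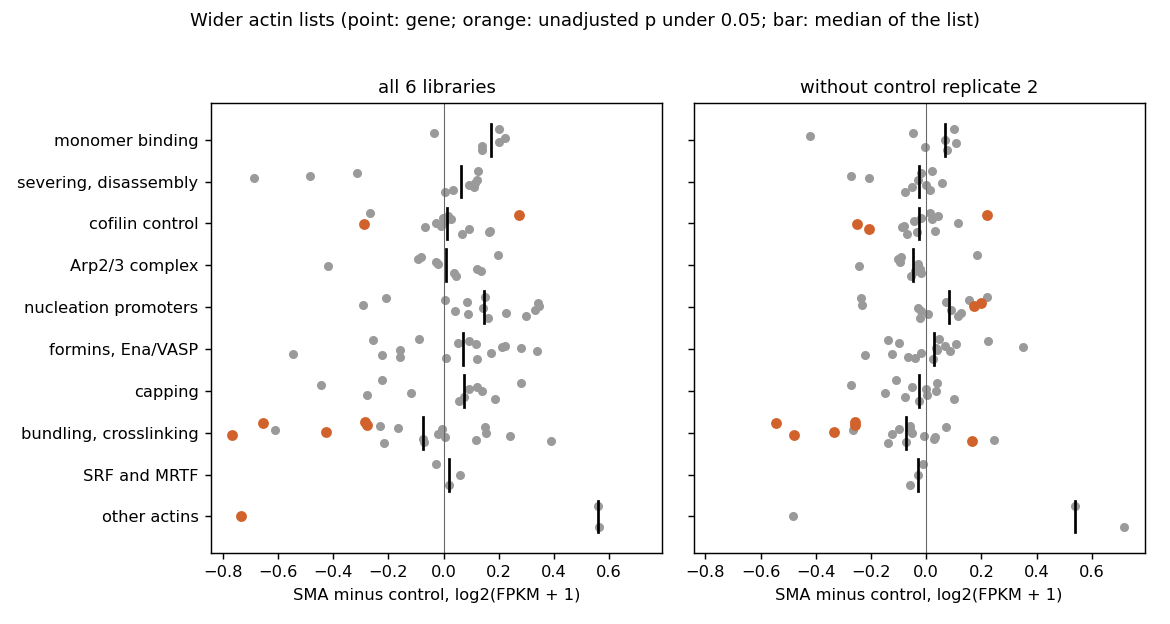
SMA minus control on the log2(FPKM + 1) scale for each tested gene of the 10 actin lists, from all 6 libraries (left, 106 genes) and without control replicate 2 (right, 107 genes). Points are genes, orange points have an unadjusted p under 0.05 by limma and bars are list medians; the orange points on the left are 7 lower genes, 5 of them in the bundling and crosslinking list, and 1 higher gene.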

How the data were processed

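FPKM of each library were deposited by the authors, from strand-specific, ribosomal RNA-depleted reads. The submitters' processing notes name HISAT2, Cufflinks and mm10, with no versions. A gene absent from a library was set to 0. Loci in the files were matched to GENCODE M21 (GRCm38). Read counts were not used here, so depth in reads is unknown; the commonest ratio between libraries of levels below 0.15 FPKM put their depths at 1.00 to 1.16 relative to SMA replicate 1. SMA and control were compared on log2(FPKM + 1) with lmFit and eBayes (with a trend) of limma 3.58.1 in R 4.3.3, two-sided, over the 17088 genes averaging 0.5 FPKM or more, with Benjamini-Hochberg adjustment. A fold on this scale is understated for low genes. The procedure was tested on simulated data. The 9 genes and all lists were chosen with earlier results of these data known. Named genes are the 9, in each actin list the 2 most abundant and at most 3 with an unadjusted p under 0.05 by size of difference, the most abundant gene of each of 14 marker lists (2 others are not reported here), the 6 genes most like Tmsb10 and Actb, and Smn1; Xist, Eif2s3y, Rarres2, reference genes and pseudogenes were added after values were seen. Transcript windows of 100 bases were matched on both strands, with main transcripts taken as the principal isoforms of GENCODE. Alternatives were a pseudocount of 0.1, no filter or a minimum mean of 1 FPKM, 4 scalings, the replicate number as a block, and leaving out each library.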

Additional observations from a re-analysis of the deposited data

How the results depend on the processing

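The log2 difference of Tmsb10 was between 0.64 and 1.07 when 1 library was left out and between 0.76 and 0.86 under the other alternatives, against 0.83 as reported, and the log2 ratio of Tmsb10 to Tmsb4x was between 0.53 and 0.90 with 1 library left out. Pfn1, Dstn and Actg1 also kept their signs throughout. Without control replicate 2, Tmsb4x (-0.02), Pfn2 (-0.02), Cfl1 (-0.03) and Cfl2 (-0.08) changed sign, and Actb changed sign with median ratio scaling (-0.03), with the same sum without hepatocyte and erythroid markers (-0.01) and without SMA replicate 1 (-0.01). At an unadjusted p under 0.05 by limma, 1 actin regulator gene was higher in SMA as reported. The count was 4 with no filter, 0 with the same sum, 3 with quantile normalization and 3 with median ratio scaling. It was 0 with the same sum without hepatocyte and erythroid markers, and 0 to 4 with 1 library left out. Over all genes tested, 581 were higher as reported, and 882, 338, 639, 547 and 330 in these settings, in the same order. With 1 library left out, 214 to 1040 of all genes were higher. The count of lower actin regulator genes, 7 as reported, was 2 to 10 with 1 library left out. It was lowest, at 2, without SMA replicate 2 and without SMA replicate 3, beside 142 and 125 of all genes tested. Over all genes tested, 409 were lower as reported and 573 without control replicate 1, where the actin count was 10. Without control replicate 2 it was 862, with an actin count of 7. The cause of these moves was not tested. At an adjusted p the actin count was 0 in each alternative. With the replicate block, 2 actin regulator genes were higher and 3 lower at an unadjusted p under 0.05, beside 356 and 303 of all genes. The labels do not say whether equal replicate numbers mark pairs. Deviations of same-numbered libraries from their group means had correlations of -0.04, 0.02 and 0.08 over 17088 genes. These values cannot decide it, since control replicate 2, which held liver RNA, weighs on the control mean and so on every control deviation. Only the libraries numbered 3 correlated best with each other.

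The files hold no counts, so no counting error is given for any level. With 3 libraries per group, the standard errors of the 9 log2 differences were 0.12 to 0.26, and 0.06 to 0.21 without control replicate 2, which held liver RNA. How many mice stand behind the libraries of a group is unknown. Fragment sizes, which bear on the FPKM of a short gene such as Tmsb10, were not used here, and reads shared between Actg1 and its pseudogenes cannot be told apart.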
